A study of Mus musculus with 47 samples.

Results

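In tibialis anterior muscle of the mouse, 30 of the 13500 genes of the expression table differed between ZT12 and ZT0 in sham-operated mice of both genotypes and showed no such difference after the adrenal glands had been removed. ZT counts hours from lights on. The 30 genes were chosen by their measured values. The rule took each gene on the scale log2(FPKM + 1), where FPKM is fragments per kilobase of transcript scaled to the mapped reads of a library, and d, the mean at ZT12 minus the mean at ZT0. A gene was kept where d was at least 0.4 in size with the same sign in RE-RE sham and WT sham mice, under 0.2 in size in RE-RE ADX and WT ADX mice, and not of the opposite sign to sham at 0.3 or more in WT ADX+DEX mice. Of the 30 genes, 12 were higher at ZT12 in the sham mice and 18 were lower. The differences in these 5 conditions therefore made the choice and are given as a description with no test. A sixth condition, WT ADX+ADR, took no part in the choice and was tested. The mean level over both times was not a term of the rule and was tested as well, although a small d is more easily met at a low level on this scale.

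RNA was sequenced from 47 female C57BL/6 mice fed ad libitum, with 1 library per animal in 12 groups, all of 4 mice except the 3 of WT ADX at ZT0. The RE-RE mice are homozygous for Bmal1(stopFL/stopFL), an allele of the core clock gene kept silent by a stop cassette, and carry Syt10-Cre(-/tg) together with Hsa-Cre(-/tg). Syt10-Cre acts in the central clock and other parts of the brain and Hsa-Cre in skeletal muscle fibres, so Bmal1 is restored there and is missing in other tissues. All other mice were wild type (WT). ADX mice had both adrenal glands removed, the second 2 days after the first, and then drank saline with glucose. ADX+ADR mice were adrenalectomized WT mice injected intraperitoneally with adrenaline at 0.5 mg/kg, and ADX+DEX mice were adrenalectomized WT mice injected with dexamethasone, a synthetic glucocorticoid, at 5 mg/kg. Both hormones were given for 10 days at ZT12, and at least 2 weeks of recovery preceded collection. The time between the last injection and collection is not stated exactly, and no vehicle-injected group was analysed here. The injection and the agent injected thus cannot be told apart in comparisons with WT ADX mice or between the times of 1 hormone group. WT ADX+DEX against WT ADX+ADR compares 2 agents given at the same hour for the same number of days. The WT ADX+ADR mice were 13 to 14 weeks old and the WT ADX+DEX mice 11 to 14 weeks. RE-RE mice were 8 to 18 weeks old after ADX and 9 to 14 weeks after sham surgery, and the other WT mice 12 to 17 weeks after ADX and 9 to 12 weeks after sham surgery.

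The adrenal cortex releases corticosterone in a daily rhythm that peaks around the start of the active phase, which for a mouse is lights off at ZT12. Corticosterone acts through the glucocorticoid receptor, a transcription factor present in most cells, and the adrenal medulla releases adrenaline, which raises cyclic AMP in muscle through beta-adrenergic receptors. Muscle fibres also hold a clock of their own, built on BMAL1 and CLOCK, so a daily difference in a muscle transcript may be driven by that clock, by hormones, by feeding or by several of these. Adrenalectomy removes both hormones at once.

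Arntl, the gene that encodes BMAL1, had 0.985, 3.99, 2.72 and 1.79 FPKM at ZT12 and 10.7, 7.22, 8.13 and 11.4 FPKM at ZT0 in RE-RE ADX muscles. In RE-RE sham muscles it had 0.327, 0, 0 and 0 FPKM at ZT12 and 13.4, 15.2, 14.8 and 14.2 FPKM at ZT0, and in WT sham muscles 0.673, 0.123, 0.758 and 0 FPKM at ZT12 and 14.2, 18.8, 16.2 and 18.0 FPKM at ZT0. In these 3 conditions every library of ZT0 was above every library of ZT12, so the transcript of the restored allele was present and had the time order of WT mice. All 12 muscle fibre markers were in the table and summed to 62032 to 93360 FPKM per library. Depth read from the step sizes of 68 near-absent genes lay between 16.2 and 35.6 M reads, with a median of 22.6 M. A set of 7 libraries stood apart from the other 40, since they shared at most 1 exact value with any library of their group, where the others shared 18 to 92. They were WT sham ZT12 replicate 8 and ZT0 replicate 4, RE-RE sham ZT12 replicate 6 and ZT0 replicate 2, and RE-RE ADX ZT12 replicate 5 and ZT0 replicates 1 and 4. Without them the same rule kept 60 genes, 18 of which are among the 30. All 30 genes held the sign of both sham differences without these libraries, 19 held both at 0.4 or more, and 29 stayed under 0.2 in both ADX conditions.

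The choice sits close to its thresholds. Of the 30 genes, 15 had their smaller sham difference within 0.05 of 0.4, and 15 had their larger ADX difference within 0.05 of 0.2. Just inside the sham threshold were Gtf2ird1 at 0.40, Txnip at 0.41 and Fam102b at 0.41, and just outside were Gm2965 at 0.40, Kpna2 at 0.40 and Srm at 0.39 in size. Just inside the ADX threshold were Lpgat1 at 0.20 and Gm37116 at 0.20, and just outside were Fam107a at 0.20, Fam110b at 0.20 and Timp3 at 0.21. The dexamethasone term removed 13 genes. Serinc3, at -0.37 in WT ADX+DEX, was the nearest of these, before Rab27a at -0.38 and Jade2 at -0.40, while Agap2 at -0.22, Ifi205 at -0.20 and 9330159F19Rik at 0.19 were the nearest that it kept. In all, 325 genes differed by 0.4 or more with the same sign in both sham conditions, 175 of them higher and 150 lower at ZT12. Of those 325, 43 were under 0.2 in both ADX conditions, while 48 kept a difference of 0.4 or more of the same sign in both. Erythroid markers moved with time in the sham mice, as all 5 in the table were higher at ZT12 by 0.4 or more in both sham conditions. In RE-RE ADX all 5 were under 0.2 in size, with d from -0.14 to -0.045. In WT ADX d ran from 0.54 to 0.79, so 0 of them were under 0.2 in both ADX conditions. They summed to 124 to 288 FPKM at ZT12 and 69.3 to 155 FPKM at ZT0 in RE-RE sham, and to 159 to 207 FPKM at ZT12 and 92.4 to 152 FPKM at ZT0 in WT sham. Their part in the choice of genes was not tested.

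**Figure D1:**
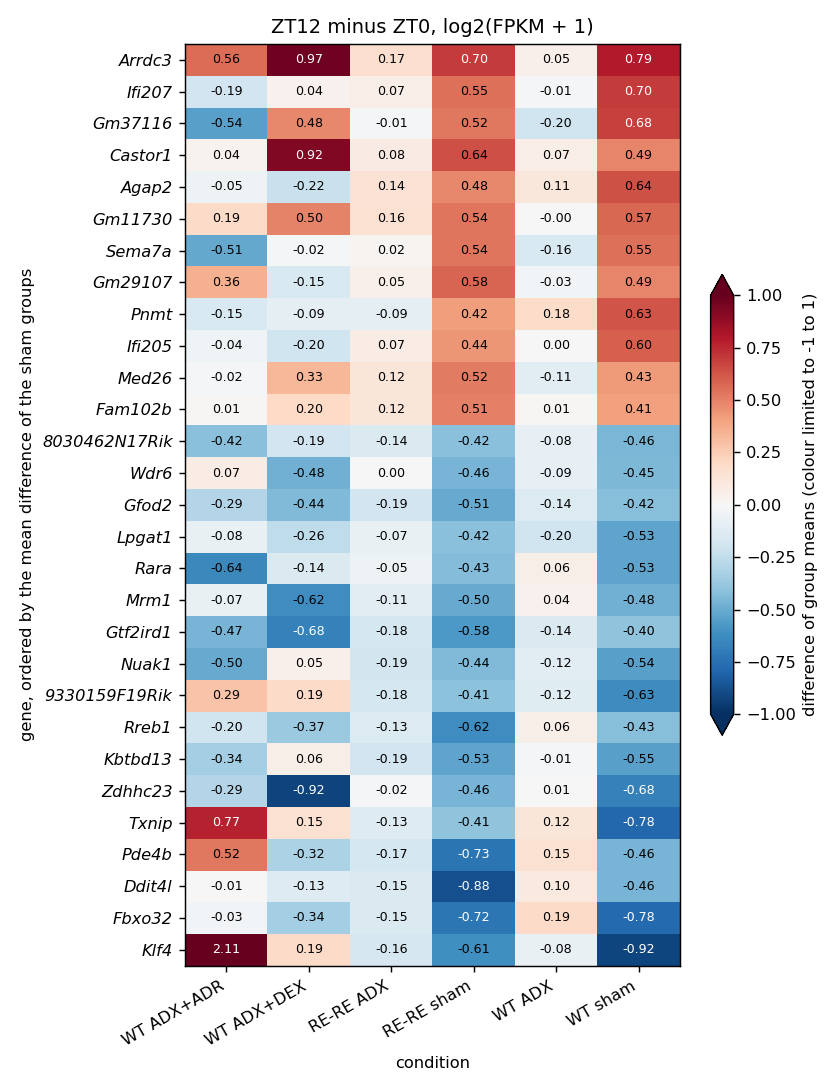
Mean at ZT12 minus mean at ZT0 on the log2(FPKM + 1) scale (number and colour) for 29 of the 30 genes (rows) in the 6 conditions (columns). The 4 columns of ADX and sham mice and the WT ADX+DEX column were used to choose the genes; in the WT ADX+ADR column, which was not, Klf4 stood at 2.11 and Rara at -0.64.

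Of the 12 genes that were higher at ZT12 in sham mice, Arrdc3 (chr13:80883384-80896042 on GRCm38, as all positions here) encodes an alpha-arrestin, an adaptor that controls trafficking of beta-adrenergic and other membrane receptors. It had 11.8, 10.7, 11.1 and 13.7 FPKM at ZT12 and 11.0, 10.5, 11.5 and 8.70 FPKM at ZT0 in RE-RE ADX muscles, against 13.1, 17.2, 14.9 and 20.1 FPKM at ZT12 and 10.1, 8.58, 11.9 and 8.00 FPKM at ZT0 in RE-RE sham muscles. In WT ADX muscles it had 8.64, 10.4, 8.67 and 8.00 FPKM at ZT12 and 7.52, 8.4 and 9.85 FPKM at ZT0, against 16.3, 10.3, 13.2 and 14.6 FPKM at ZT12 and 6.69, 8.84, 7.69 and 6.30 FPKM at ZT0 in WT sham muscles. The times overlapped in both ADX conditions and in neither sham condition. In WT ADX+DEX muscles, with 23.5, 16.1, 20.3 and 25.2 FPKM at ZT12 and 8.84, 10.6, 9.82 and 11.8 FPKM at ZT0, the times were again apart, and d was 0.97, the highest of the 30 genes in that condition.

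Castor1 (chr11:4218225-4222409) encodes a cytosolic arginine sensor that inhibits mTORC1 when arginine is low. It had 2.11, 1.85, 2.06 and 2.21 FPKM at ZT12 and 1.88, 1.88, 2.12 and 1.68 FPKM at ZT0 in RE-RE ADX muscles, against 2.33, 3.07, 3.13 and 2.73 FPKM at ZT12 and 1.24, 1.22, 1.78 and 1.54 FPKM at ZT0 in RE-RE sham muscles. WT muscles had 1.71, 1.05, 1.23 and 1.20 FPKM at ZT12 and 1.22, 1.24 and 1.08 FPKM at ZT0 after ADX, against 2.50, 1.5, 2.33 and 2.29 FPKM at ZT12 and 1.31, 1.38, 1.21 and 1.04 FPKM at ZT0 after sham surgery. Under dexamethasone its times did not overlap, at 2.83, 2.58, 2.19 and 2.62 FPKM at ZT12 and 0.964, 1.07, 0.860 and 0.612 FPKM at ZT0, and d was 0.92. The dexamethasone differences were part of the rule. Under adrenaline, which was not, d was 0.04 for Castor1 and 0.56 for Arrdc3.

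Pnmt (chr11:98386450-98388181) encodes phenylethanolamine N-methyltransferase, the enzyme that turns noradrenaline into adrenaline, which is abundant in the adrenal medulla and a known glucocorticoid target there. In muscle it was scarce. It had 0.473, 0.526, 0.559 and 0.578 FPKM at ZT12 and 0.742, 0.694, 0.340 and 0.816 FPKM at ZT0 in RE-RE ADX muscles, against 1.40, 1.42, 1.71 and 0.702 FPKM at ZT12 and 1.07, 0.769, 0.552 and 0.474 FPKM at ZT0 in RE-RE sham muscles. In WT ADX muscles it had 0.108, 0.0492, 0.0466 and 0.358 FPKM at ZT12 and 0, 0 and 0 FPKM at ZT0, against 1.06, 0.402, 0.564 and 0.660 FPKM at ZT12 and 0, 0.0345, 0.10 and 0.151 FPKM at ZT0 in WT sham muscles, with a 0 in each of the 3 WT ADX libraries of ZT0. In the WT ADX+DEX muscles Pnmt stood at 34.1 to 44.2 FPKM, far above every other library, with a d of -0.09. Tcap, a sarcomeric Z-disc gene of 2306 FPKM on average, lies 1497 bp away on the same strand and had a d of 1.22 in RE-RE sham and 1.14 in WT sham; whether its reads touched the Pnmt values was not tested.

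Sema7a, a membrane-anchored semaphorin, had 5.94, 4.96, 5.8 and 5.65 FPKM at ZT12 and 5.92, 6.82 and 6.26 FPKM at ZT0 in WT ADX muscles, against 9.74, 5.91, 8.04 and 8.86 FPKM at ZT12 and 4.20, 5.62, 6.09 and 4.90 FPKM at ZT0 in WT sham muscles. Agap2, a GTPase-activating protein that binds phosphoinositide 3-kinase, had 0.669, 0.490, 0.584 and 0.585 FPKM at ZT12 and 0.489, 0.606 and 0.305 FPKM at ZT0 in WT ADX muscles, against 1.93, 0.939, 1.39 and 1.06 FPKM at ZT12 and 0.328, 0.352, 0.410 and 0.895 FPKM at ZT0 in WT sham muscles. Med26, a subunit of the Mediator complex that links transcription factors to RNA polymerase II, had 1.89, 2.13, 1.59 and 2.15 FPKM at ZT12 and 2.60, 2.33 and 1.63 FPKM at ZT0 in WT ADX muscles, against 4.73, 2.83, 4.18 and 4.32 FPKM at ZT12 and 2.91, 2.24, 2.83 and 2.81 FPKM at ZT0 in WT sham muscles. For Agap2 the sham times were apart and the ADX times overlapped, while for Sema7a and Med26 the WT sham ranges touched through replicate 6 of ZT12, the lowest library of that group for each. Fam102b, Ifi207 and Ifi205, the last 2 of the interferon-inducible p200 family, completed the coding genes, with d between 0.41 and 0.70 in the sham conditions. Ifi205 did not reach 1 FPKM in 3 libraries and was left out of the tests. Gm11730, Gm29107 and Gm37116 are an antisense RNA, a long non-coding RNA and a processed pseudogene. In WT ADX muscles Gm11730 had 0 to 0.00904 FPKM and Ifi205 had 0 to 0.101 FPKM. At levels this near 0 the offset of 1 keeps d small, so both met the WT ADX term of the rule at the floor. Pnmt was also near the floor in WT ADX, with a d of 0.18, and its WT ADX times did not overlap, ZT12 being higher as in sham.

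Of the 18 genes that were lower at ZT12 in sham mice, Klf4 (chr4:55527143-55532466, minus strand) encodes a zinc-finger factor known for its role in pluripotency, endothelium and differentiation. It had 4.02, 5.92, 4.36 and 5.51 FPKM at ZT12 and 7.07, 5.71, 6.96 and 3.44 FPKM at ZT0 in RE-RE ADX muscles, against 2.44, 6.04, 1.49 and 3.13 FPKM at ZT12 and 7.70, 3.04, 4.50 and 5.98 FPKM at ZT0 in RE-RE sham muscles. WT muscles had 9.81, 11.0, 11.9 and 6.17 FPKM at ZT12 and 12.0, 10.3 and 8.10 FPKM at ZT0 after ADX, against 7.08, 6.02, 7.58 and 2.67 FPKM at ZT12 and 11.4, 9.99, 9.22 and 15.4 FPKM at ZT0 after sham surgery. The WT sham times were apart, and the RE-RE sham times overlapped through replicate 6 of ZT12 at 6.04 FPKM and replicate 2 of ZT0 at 3.04 FPKM, both among the 7 libraries that stand apart.

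Rara (chr11:98927818-98974942) encodes retinoic acid receptor alpha, a nuclear receptor. It had 3.47, 3.75, 3.95 and 3.40 FPKM at ZT12 and 3.97, 3.66, 3.36 and 4.25 FPKM at ZT0 in RE-RE ADX muscles, against 2.87, 2.47, 3.17 and 2.86 FPKM at ZT12 and 3.91, 4.65, 3.53 and 4.68 FPKM at ZT0 in RE-RE sham muscles. In WT ADX muscles it had 4.01, 3.53, 4.10 and 3.94 FPKM at ZT12 and 3.65, 3.38 and 4.04 FPKM at ZT0, against 3.05, 3.02, 3.05 and 2.77 FPKM at ZT12 and 4.80, 4.40, 4.79 and 4.93 FPKM at ZT0 in WT sham muscles. The 2 sham conditions were apart between the times and the 2 ADX conditions overlapped. Rreb1, a zinc-finger factor that binds Ras-responsive elements, had 2.75, 2.63, 2.80 and 2.98 FPKM at ZT12 and 2.68, 2.48 and 2.72 FPKM at ZT0 in WT ADX muscles, against 3.01, 2.98, 2.57 and 2.93 FPKM at ZT12 and 4.15, 4.42, 3.91 and 4.32 FPKM at ZT0 in WT sham muscles. Gtf2ird1, of the TFII-I family, had 1.18, 0.981, 1.16 and 1.26 FPKM at ZT12 and 1.36, 1.63 and 1.13 FPKM at ZT0 in WT ADX muscles, against 1.02, 1.07, 1.02 and 1.14 FPKM at ZT12 and 1.61, 1.72, 1.89 and 1.70 FPKM at ZT0 in WT sham muscles. For both genes every WT sham library of ZT12 was below every one of ZT0.

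Fbxo32 (chr15:58175879-58214932, minus strand) encodes atrogin-1, the muscle ubiquitin ligase of atrophy and a target of FOXO factors and of the glucocorticoid receptor. It had 50.1, 41.8, 46.9 and 47.1 FPKM at ZT12 and 53.1, 56.7, 40.9 and 56.9 FPKM at ZT0 in RE-RE ADX muscles, against 39.9, 26.6, 35.5 and 57.6 FPKM at ZT12 and 33.7, 87.1, 95.0 and 59.8 FPKM at ZT0 in RE-RE sham muscles. WT muscles had 13.0, 20.7, 26.5 and 27.7 FPKM at ZT12 and 22.5, 14.4 and 19.3 FPKM at ZT0 after ADX, against 28.1, 21.5, 16.7 and 34.7 FPKM at ZT12 and 48.1, 80.8, 19.4 and 42.7 FPKM at ZT0 after sham surgery. The libraries of 1 group differed widely, from 33.7 to 95.0 FPKM in RE-RE sham and 19.4 to 80.8 FPKM in WT sham at ZT0, and the times overlapped in all 6 conditions although the sham means differed by -0.72 and -0.78.

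Ddit4l (chr3:137621612-137628333), also called REDD2, encodes an inhibitor of mTORC1 in muscle. It had 55.3, 60.6, 81.4 and 76.4 FPKM at ZT12 and 91.5, 57.0, 77.4 and 78.1 FPKM at ZT0 in RE-RE ADX muscles, against 40.1, 34.4, 36.4 and 43.8 FPKM at ZT12 and 83.1, 72.6, 62.6 and 70.7 FPKM at ZT0 in RE-RE sham muscles. In WT ADX muscles it had 89.9, 108, 107 and 69.2 FPKM at ZT12 and 97.7, 77.1 and 84.4 FPKM at ZT0, against 52.1, 93.1, 58.4 and 70.7 FPKM at ZT12 and 92.0, 98.3, 91.5 and 89.3 FPKM at ZT0 in WT sham muscles. Its sham times were apart in RE-RE and overlapped in WT, where replicate 6 of ZT12 reached 93.1 FPKM.

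Txnip (chr3:96557957-96561883) encodes an alpha-arrestin like Arrdc3, but one that restrains glucose uptake and binds thioredoxin. It had 134, 109, 130 and 162 FPKM at ZT12 and 146, 128, 177 and 133 FPKM at ZT0 in RE-RE ADX muscles, against 307, 133, 102 and 222 FPKM at ZT12 and 192, 300, 281 and 176 FPKM at ZT0 in RE-RE sham muscles. WT muscles had 139, 164, 159 and 39.3 FPKM at ZT12 and 94.0, 67.7 and 160 FPKM at ZT0 after ADX, against 85.0, 65.6, 71.7 and 177 FPKM at ZT12 and 182, 272, 132 and 96.9 FPKM at ZT0 after sham surgery. Within RE-RE sham at ZT12 alone the libraries ran from 102 to 307 FPKM, and the times overlapped in both sham conditions. Without the 7 libraries that stand apart the sham differences were -0.15 in RE-RE and -1.33 in WT. An antisense gene, Gm15441, shares 606 bp of exon with Txnip, and whether reads were counted by strand is not stated, so the pair's reads cannot be told apart.

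Pde4b (chr4:102087543-102607259) encodes a phosphodiesterase that breaks down cyclic AMP. It had 7.04, 9.45, 10.8 and 7.19 FPKM at ZT12 and 11.3, 9.40, 8.53 and 9.80 FPKM at ZT0 in RE-RE ADX muscles, against 6.48, 5.83, 5.45 and 7.04 FPKM at ZT12 and 12.0, 10.9, 11.3 and 9.67 FPKM at ZT0 in RE-RE sham muscles. In WT ADX muscles it had 11.4, 13.7, 13.1 and 13.6 FPKM at ZT12 and 12.8, 10.8 and 11.1 FPKM at ZT0, against 8.71, 10.6, 9.43 and 7.86 FPKM at ZT12 and 15.0, 12.1, 10.9 and 13.9 FPKM at ZT0 in WT sham muscles. All sham libraries of ZT12 were below all of ZT0 within each genotype, and the ADX times overlapped. Nuak1, a kinase related to AMPK, and Kbtbd13, a BTB-kelch protein whose gene is mutated in human nemaline myopathy, gave the same picture. Nuak1 had 5.82, 5.63, 5.87 and 5.29 FPKM at ZT12 and 6.75, 6.30 and 5.63 FPKM at ZT0 in WT ADX muscles, against 4.27, 5.23, 4.21 and 4.48 FPKM at ZT12 and 6.43, 8.28, 6.41 and 7.28 FPKM at ZT0 in WT sham muscles. Kbtbd13 had 13.1, 12.2, 11.5 and 11.3 FPKM at ZT12 and 11.9, 14.1 and 10.7 FPKM at ZT0 in WT ADX muscles, against 10.2, 10.5, 9.47 and 9.30 FPKM at ZT12 and 15.8, 13.2, 15.3 and 15.3 FPKM at ZT0 in WT sham muscles.

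Lpgat1, also lower at ZT12 in sham mice, is an acyltransferase of phospholipids, Zdhhc23 belongs to the protein palmitoyltransferases, and Mrm1 methylates mitochondrial ribosomal RNA. Lpgat1 had 4.67, 4.31, 4.41 and 4.85 FPKM at ZT12 and 5.45, 5.73 and 4.97 FPKM at ZT0 in WT ADX muscles, against 5.79, 4.13, 5.45 and 4.74 FPKM at ZT12 and 7.14, 7.42, 7.87 and 8.17 FPKM at ZT0 in WT sham muscles. Mrm1 had 3.45, 2.72, 3.35 and 3.18 FPKM at ZT12 and 3.18, 2.97 and 3.01 FPKM at ZT0 in WT ADX muscles, against 3.41, 2.95, 3.44 and 2.71 FPKM at ZT12 and 4.04, 4.46, 5.25 and 5.29 FPKM at ZT0 in WT sham muscles. Both had sham times that did not overlap, and in Lpgat1 the 2 WT ADX times, although under the threshold of 0.2, did not overlap either. Zdhhc23, which is near 1 FPKM, was listed at 0 in 1 RE-RE sham library of ZT12 and had a d of -0.92 under dexamethasone, the lowest of the 30. Wdr6, Gfod2, 8030462N17Rik and 9330159F19Rik had sham differences between -0.63 and -0.41. The WT ADX times of 9330159F19Rik did not overlap, at 9.98 to 10.7 FPKM at ZT12 and 10.9 to 12.1 FPKM at ZT0.

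The RE-RE values follow for genes whose WT values stand alone above. The rule asked for the same sign in both sham conditions, so nothing is read from the shared sham order. Sema7a had 6.04 to 7.14 FPKM at ZT12 and 5.53 to 6.90 FPKM at ZT0 in RE-RE ADX muscles, against 7.05 to 8.44 FPKM at ZT12 and 4.62 to 5.64 FPKM at ZT0 in RE-RE sham muscles. Agap2 had 0.855 to 1.23 FPKM at ZT12 and 0.806 to 0.875 FPKM at ZT0 in RE-RE ADX muscles, against 0.786 to 1.57 FPKM at ZT12 and 0.361 to 0.659 FPKM at ZT0 in RE-RE sham muscles. Med26 had 2.77 to 4.61 FPKM at ZT12 and 2.86 to 3.36 FPKM at ZT0 in RE-RE ADX muscles, against 3.54 to 5.35 FPKM at ZT12 and 1.77 to 4.15 FPKM at ZT0 in RE-RE sham muscles. Of these 3 genes, Med26 was the one whose RE-RE sham ranges overlapped.

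Among the transcription factors and kinases lower at ZT12, Rreb1 had 2.83 to 3.51 FPKM at ZT12 and 3.05 to 3.99 FPKM at ZT0 in RE-RE ADX muscles, against 1.99 to 2.63 FPKM at ZT12 and 3.63 to 4.38 FPKM at ZT0 in RE-RE sham muscles. Gtf2ird1 had 1.22 to 1.54 FPKM at ZT12 and 1.49 to 1.88 FPKM at ZT0 in RE-RE ADX muscles, against 0.864 to 1.31 FPKM at ZT12 and 1.74 to 2.42 FPKM at ZT0 in RE-RE sham muscles. Nuak1 had 4.37 to 5.42 FPKM at ZT12 and 5.32 to 5.99 FPKM at ZT0 in RE-RE ADX muscles, against 3.85 to 4.79 FPKM at ZT12 and 5.21 to 7.71 FPKM at ZT0 in RE-RE sham muscles. In RE-RE sham muscles the times of these 3 genes did not overlap, and in RE-RE ADX muscles they did. Kbtbd13, Lpgat1 and Mrm1 were likewise apart between the times in RE-RE sham and overlapping in RE-RE ADX, with d of -0.19, -0.07 and -0.11 in RE-RE ADX against -0.53, -0.42 and -0.50 in RE-RE sham. Gfod2 was an exception, since its RE-RE ADX times did not overlap although d was -0.19.

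Of the 29 genes that were tested, the ZT12 and ZT0 libraries did not overlap in 2 in RE-RE ADX, where 9.28% of all tested genes did not overlap in either direction, and in 19 in RE-RE sham, where 12.7% did not. In WT ADX they were apart in 4, beside 18.1% of all tested genes, and in WT sham in 21, beside 24.8%. Under dexamethasone they were apart in 12, beside 25.6%. The rule used the differences in these 5 conditions, so nothing is read from the counts. Under adrenaline, which the rule did not use, the times were apart in 14 of the 29 genes, 9 on the side of the sham difference and 5 on the other, beside 18.4% of all tested genes.

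Across the 30 genes, the dexamethasone-treated mice had the sham direction in 20 and the other direction, at under 0.3, in 10, and 10 genes reached 0.4 or more on the sham side. Those counts are partly fixed by the rule, which removed genes on the other side at 0.3 or more. The 5 with the largest differences were Arrdc3 at 0.97, Castor1 at 0.92, Zdhhc23 at -0.92, Gtf2ird1 at -0.68 and Mrm1 at -0.62. Zdhhc23 had 1.75 to 1.98 FPKM at ZT12 and 3.67 to 5.50 FPKM at ZT0, Gtf2ird1 1.24 to 1.41 FPKM at ZT12 and 2.50 to 2.93 FPKM at ZT0 and Mrm1 2.37 to 2.99 FPKM at ZT12 and 4.16 to 4.96 FPKM at ZT0 in WT ADX+DEX muscles, none with an overlap. Fbxo32 had a d of -0.34, Klf4 of 0.19 and Txnip of 0.15.

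**Figure D2:**
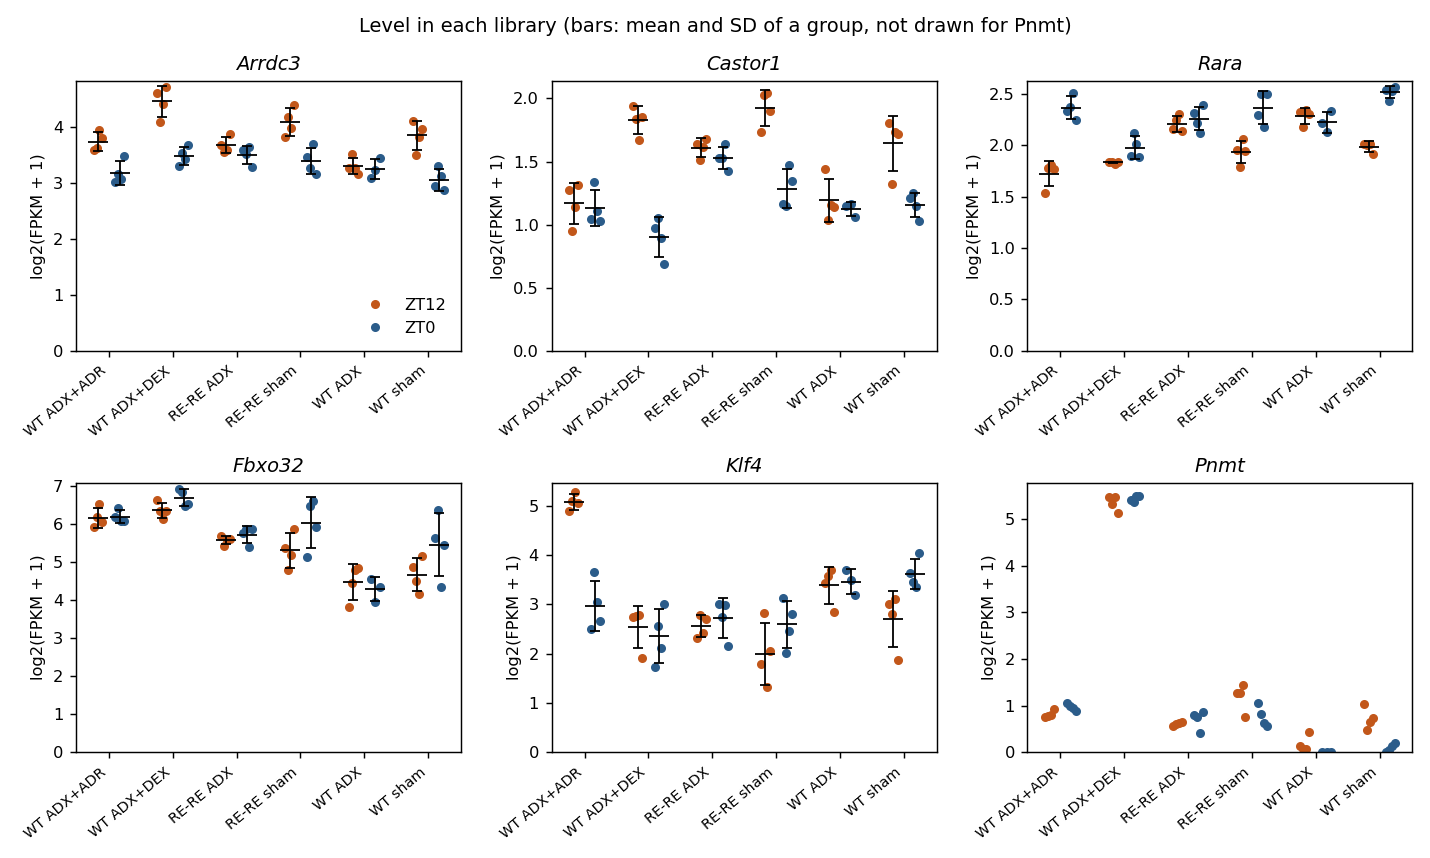
Level of 6 of the genes on the log2(FPKM + 1) scale in each library (points, ZT12 left of ZT0 in each condition), with the mean and SD of each group as bars; none are drawn for Pnmt, which has values at 0. Arrdc3 and Castor1 were apart between the times under dexamethasone, Klf4 and Rara were apart under adrenaline in opposite directions, and Pnmt was high in the dexamethasone-treated muscles.

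The adrenaline-treated mice took no part in the choice and allowed a test of the time difference. In limma, fitted to all 12000 tested genes, 11 of the 29 tested members differed between ZT12 and ZT0 in WT ADX+ADR at an adjusted p under 0.05, 3 higher and 8 lower at ZT12. Over all tested genes 6.59% were called higher and 7.0% lower. Of the 18 genes lower at ZT12 in sham mice, 7 were lower again, 2 were higher and 9 were not called. Of the 11 tested genes higher at ZT12 in sham mice, 1 was higher again, 1 was lower and 9 were not called. The median d was -0.07 over the 29 genes, against 0.02 over all tested genes.

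Rara had the smallest adjusted p. It had 1.91, 2.44, 2.51 and 2.41 FPKM at ZT12 and 4.06, 4.19, 4.71 and 3.76 FPKM at ZT0, with no overlap, and its difference was -0.64 ± 0.07 (SE, adjusted p = 6.82e-09). Gtf2ird1 had 1.16, 1.02, 1.25 and 1.08 FPKM at ZT12 and 1.84, 1.95, 1.88 and 2.06 FPKM at ZT0, a difference of -0.47 ± 0.07 (SE, adjusted p = 3.52e-06). Both were lower at ZT12, as in sham mice, with no overlap between the times. Nuak1 had 5.23, 5.47, 4.40 and 4.97 FPKM at ZT12 and 7.23, 7.81, 7.35 and 7.67 FPKM at ZT0 and 8030462N17Rik had 4.80, 5.23, 4.67 and 4.88 FPKM at ZT12 and 6.92, 6.46, 7.09 and 7.11 FPKM at ZT0. Their differences were -0.50 ± 0.08 (SE, adjusted p = 3.74e-05) for Nuak1 and -0.42 ± 0.07 (SE, adjusted p = 3.35e-05) for 8030462N17Rik. Gfod2 was lower by the same test at -0.29 ± 0.07 (SE, adjusted p = 0.00459). Kbtbd13, at -0.34 ± 0.11 (SE, adjusted p = 0.0349), lost the call without any 1 of 6 libraries (ZT12 replicates 5, 6 and 7, ZT0 replicates 1, 2 and 4), and Rreb1, at -0.20 ± 0.06 (SE, adjusted p = 0.0234), without any 1 of 4 (ZT12 replicates 5 and 8, ZT0 replicates 3 and 4). Arrdc3, with 11.0, 11.4, 14.4 and 13.0 FPKM at ZT12 and 7.09, 7.91, 7.36 and 10.2 FPKM at ZT0, was the gene that was higher again, by 0.56 ± 0.14 (SE, adjusted p = 0.00447).

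The other 3 called genes had the opposite order under adrenaline. Klf4 had 28.5, 33.2, 37.5 and 32.2 FPKM at ZT12 and 4.69, 11.6, 7.28 and 5.35 FPKM at ZT0, so that all libraries of ZT12 were above every other Klf4 value of the study, and its difference was 2.11 ± 0.30 (SE, adjusted p = 1.69e-06), against -0.61 and -0.92 in the RE-RE and WT sham mice. Pde4b had 13.3, 13.9, 10.3 and 13.0 FPKM at ZT12 and 8.72, 8.97, 8.15 and 7.90 FPKM at ZT0, a difference of 0.52 ± 0.11 (SE, adjusted p = 0.000733). Sema7a had 3.08, 2.37, 3.25 and 3.07 FPKM at ZT12 and 4.31, 4.46, 5.29 and 4.44 FPKM at ZT0, a difference of -0.51 ± 0.10 (SE, adjusted p = 0.000353). For all 3 the sign was opposite to that in sham mice, and the times did not overlap. Txnip also lay apart between the times, at 305, 326, 403 and 333 FPKM at ZT12 and 203, 170, 190 and 238 FPKM at ZT0, but its difference of 0.77 ± 0.34 (SE, adjusted p = 0.129) did not pass. Fbxo32 and Ddit4l, at -0.03 ± 0.29 (SE, adjusted p = 0.962) and -0.01 ± 0.18 (SE, adjusted p = 0.988), did not pass either, and neither did Castor1 at 0.04 ± 0.10 (SE, adjusted p = 0.838).

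A list of cAMP and adrenergic response genes, which holds Pde4b, was set beside these results. Of its 17 tested genes, 13 were higher and 0 lower at ZT12 in WT ADX+ADR, beside 6.59% and 7.0% of all tested genes. The median was 1.11 against 0.02 over all genes. Nr4a2 rose by 3.23 ± 0.19 (SE, adjusted p = 9.19e-16) and Sik1 by 2.81 ± 0.26 (SE, adjusted p = 1.42e-10). Of the 17 list genes in the table, 9 also met the sham term of the rule. Of those, 1, Pde4b, was under the ADX threshold in both ADX conditions. A time difference in this list was thus not confined to WT ADX+ADR. Whether cyclic AMP had a part in the Klf4 and Pde4b differences was not tested. Of 13 tested genes of an immediate early and handling stress list, 4 were higher and 0 lower. Klf4 is also well known from endothelium, and endothelial markers summed to 175 to 257 FPKM at ZT12 and 154 to 168 FPKM at ZT0 in WT ADX+ADR, and of 10 markers 2 were higher and 1 lower; Cldn5 rose by 2.01 ± 0.32 (SE, adjusted p = 1.47e-05). Fibroblast markers summed to 150 to 354 FPKM at ZT12 and 311 to 601 FPKM at ZT0, with 0 of 10 higher and 3 lower. Of the other markers, 0 of 6 Schwann cell ones were higher and 3 lower, 0 of 9 macrophage ones higher and 2 lower (median -0.53), and 0 of 7 adipocyte ones higher and 2 lower. In bulk muscle, fewer cells of a type and less RNA per cell cannot be told apart, and the part of these cells in the result was not tested.

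**Figure D3:**
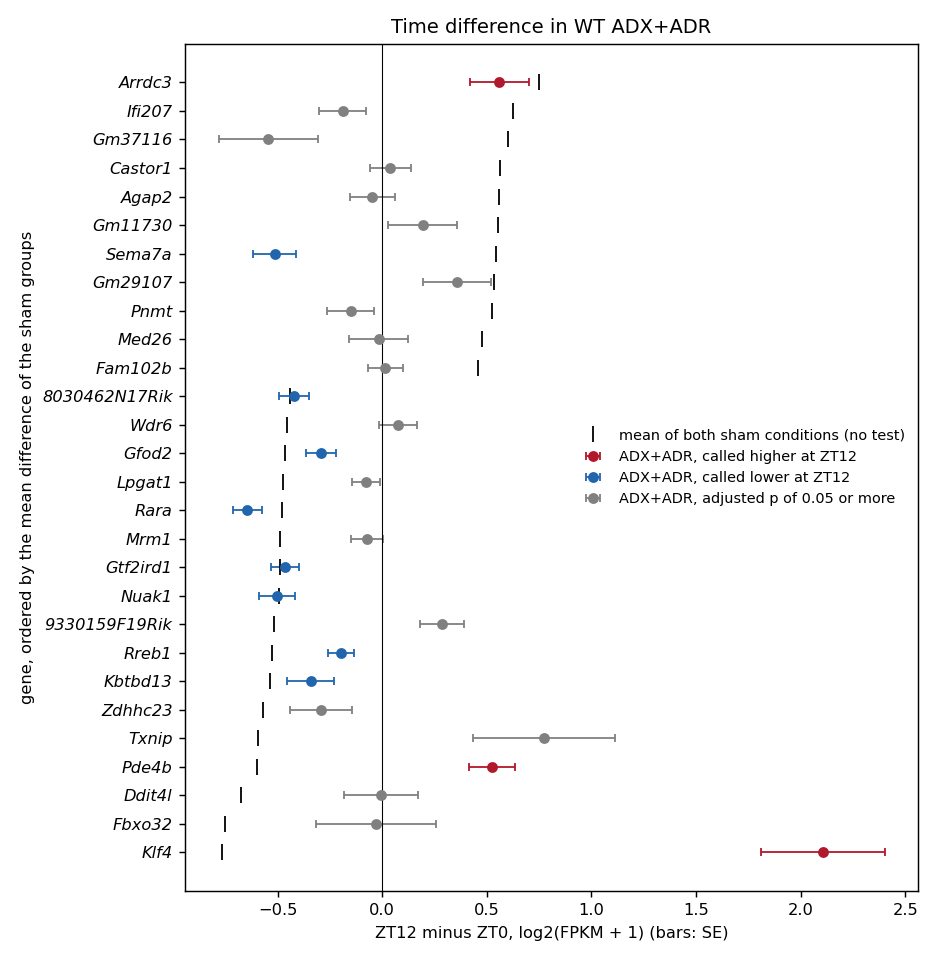
Time difference (ZT12 minus ZT0, log2(FPKM + 1), points with SE) of 28 of the 29 tested genes in WT ADX+ADR muscles, coloured by the limma call, with the mean of the 2 sham differences as a black tick. Klf4 lies far to the right at 2.11 and Pde4b at 0.52 although their ticks are negative, while Rara, Gtf2ird1 and Nuak1 lie on the side of their ticks.

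Promoters are shown for 3 of these genes. Klf4 and Rara had the highest and the lowest time difference under adrenaline among the tested members. Txnip was the 1 gene with the core of the glucocorticoid response element. Each promoter is 250 bases before to 50 bases after a transcript start, in RefSeq's annotation of GRCm38.p6, written 5′ to 3′ on the gene's strand. Capitals mark the E-box CACGTG in Klf4 and Rara and the core ACANNNTGT in Txnip.
Klf4, chr4:55532426-55532725, minus strand: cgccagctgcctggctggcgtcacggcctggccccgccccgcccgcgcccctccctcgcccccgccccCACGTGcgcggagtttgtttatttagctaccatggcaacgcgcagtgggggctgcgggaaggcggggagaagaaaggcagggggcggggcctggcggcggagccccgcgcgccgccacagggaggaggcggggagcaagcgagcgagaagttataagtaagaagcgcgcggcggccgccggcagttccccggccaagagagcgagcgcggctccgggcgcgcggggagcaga
Rara, chr11:98937446-98937745, plus strand: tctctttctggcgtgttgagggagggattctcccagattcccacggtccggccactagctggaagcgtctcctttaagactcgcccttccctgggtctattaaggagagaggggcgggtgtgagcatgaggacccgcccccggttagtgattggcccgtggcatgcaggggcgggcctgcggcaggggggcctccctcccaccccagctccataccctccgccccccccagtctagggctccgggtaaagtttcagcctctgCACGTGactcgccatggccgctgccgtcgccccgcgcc
Txnip, chr3:96557707-96558006, plus strand: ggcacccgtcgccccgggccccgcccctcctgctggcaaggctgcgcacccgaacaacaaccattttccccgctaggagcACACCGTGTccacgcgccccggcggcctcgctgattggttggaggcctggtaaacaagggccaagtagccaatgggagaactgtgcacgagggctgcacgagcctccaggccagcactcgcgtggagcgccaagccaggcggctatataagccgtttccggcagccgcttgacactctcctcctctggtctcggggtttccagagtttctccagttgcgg

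Of the 30 genes, 24 had an entry in the RefSeq promoter table, with 36 windows, and the motifs were searched on both strands. The E-box CACGTG, the site that BMAL1 and CLOCK bind, was in 6 of 36 windows (16.7%), against 7.15% of all 32851 windows, and belonged to Klf4, Mrm1, Rara, Rreb1 and Zdhhc23, all of them lower at ZT12 in sham mice. Windows of 1 gene can overlap, as 2 of Rara do, and these 2 hold the same E-box. By gene, 5 of 24 (20.8%) had the E-box, against 8.09% of all 27025 genes. This background holds all genes with a window, also those not tested here. The glucocorticoid core ACANNNTGT was in 1 window (2.78%), against 6.85% of all, and its half-site TGTTCT in 6 windows (16.7%), against 19.0% of all. The cAMP response element half-site TGACG, which the full element TGACGTCA contains, was in 11 windows (30.6%), against 20.8% of all, and TGACGTCA itself in 1 (2.78%), against 1.79% of all. The FOXO motif TGTTTAC was in 3 windows (8.33%), against 3.65% of all, the D-box TTANGTAA in 1 window (2.78%), against 2.32% of all, and the ROR half-site TAGGTCA in 0, against 2.61% of all. A match describes the letters in these windows.

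Where the level came to rest after adrenalectomy was read on a scale on which 0 is the sham level at ZT0 and 1 the sham level at ZT12 of the same genotype, using the mean of both times. In WT ADX mice the genes higher at ZT12 in sham had a median of 0.01 on this scale, and 11 of 12 lay nearer the sham ZT0 level, in the part nearest ZT0 when the range is cut in 3 equal parts, or beyond it. In RE-RE ADX mice the same genes had a median of 0.43, with 4 of 12 near the ZT0 level. The genes lower at ZT12 in sham had a median of 0.45 in RE-RE ADX and of 0.60 in WT ADX. In WT, 9 of these 18 lay near the sham ZT12 level, 5 near the ZT0 level and 4 between. In WT the first set lay mostly near the lower of its sham levels, that of ZT0. The second set was spread over the range and had no common resting level. The scale is built from the sham means that the rule used, and no share over other genes was taken, so the positions are a description. Gm11730, Ifi205 and Pnmt were at 0 to 0.358 FPKM in WT ADX and in WT sham at ZT0. Their place near or beyond the ZT0 level was thus largely fixed by the low values.

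**Figure D4:**
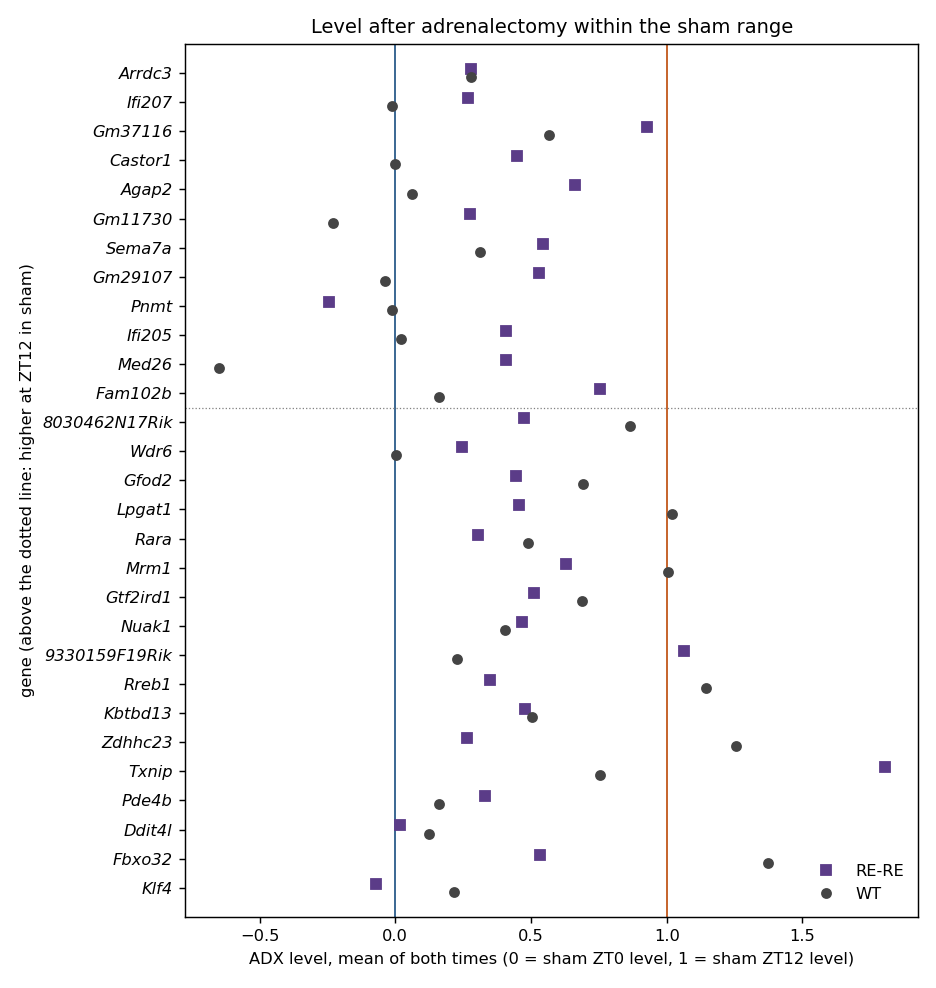
Mean level of 29 of the 30 genes after adrenalectomy in RE-RE (squares) and WT (circles) mice, placed between the sham level at ZT0 (0, blue line) and at ZT12 (1, orange line) of the same genotype. The WT circles of the genes above the dotted line gather near 0, with a median of 0.01, while their RE-RE squares have a median of 0.43.

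The mean over both times, which was not a term of the rule, was tested. On the log2(FPKM + 1) scale a level near 0 keeps d small, so the ADX term favours genes that are low after ADX. Counts in comparisons with ADX mice are therefore not fully independent of the choice. In WT, 13 of 29 genes differed between ADX and sham mice, 12 lower and 1 higher after adrenalectomy, where 26.2% of all tested genes were lower and 19.8% higher. Of the 11 tested genes higher at ZT12 in sham mice, 6 were lower in level, none was higher by this limma test, and 8 had an unadjusted p under 0.05. Rreb1 was lower, at -0.28 ± 0.04 (SE, adjusted p = 3.94e-06), with all 7 WT ADX libraries at 2.48 to 2.98 FPKM against 2.57 to 4.42 FPKM in WT sham. Lpgat1 changed by -0.27 ± 0.05 (SE, adjusted p = 2.54e-05), Med26 by -0.49 ± 0.10 (SE, adjusted p = 0.000163) and Zdhhc23 by -0.51 ± 0.11 (SE, adjusted p = 0.000188). Fbxo32 was lower at -0.68 ± 0.21 (SE, adjusted p = 0.00773), and Wdr6 was the gene that was higher, at 0.22 ± 0.07 (SE, adjusted p = 0.00653). The Fbxo32 call was lost when the model held only the groups compared. With age as a covariate the calls of Fbxo32, Zdhhc23, Wdr6 and Gm11730 were lost. Nnt, a mitochondrial transhydrogenase gene that is partly deleted in the C57BL/6J substrain, was listed at 0 in each of the 7 WT ADX libraries, while the hormone-treated mice had 9.86 to 15.4 FPKM, and in WT sham it was listed at 0 in 2 libraries, replicates 6 and 7 of ZT12, and in none of ZT0, and reached 15.0 FPKM. It thus also ran with time in the WT sham mice used to choose the genes, and the part of a difference in substrain there and in comparisons with WT ADX was not tested. Endothelial markers summed to 222 to 280 FPKM in WT ADX and 143 to 188 FPKM in WT sham, with 9 of 10 markers higher and 1 lower, 7 of 9 macrophage markers were higher and 0 lower, 0 of 6 Schwann cell markers were higher and 5 lower, and the part of these cells in the result was not tested.

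In RE-RE mice, 3 of 29 genes differed between ADX and sham, 1 higher and 2 lower, where 6.78% of all tested genes were higher and 11.3% lower. Pnmt was lower, at -0.31 ± 0.08 (SE, adjusted p = 0.00539), Ddit4l was higher, at 0.43 ± 0.12 (SE, adjusted p = 0.0152), and 9330159F19Rik was lower, at -0.23 ± 0.07 (SE, adjusted p = 0.0263). Pnmt, which differed by -0.32 ± 0.08 (SE, adjusted p = 0.0016) in WT, was the 1 gene called in the same direction in both genotypes. Both Pnmt calls were lost with the replicate block, and the RE-RE one also on the deposited log2 scale. Without the 7 libraries that stand apart, which include 5 RE-RE ones, the Ddit4l and 9330159F19Rik calls were lost, and 1 of 29 genes was called. The 9330159F19Rik call was also lost without any 1 of 7 libraries (RE-RE ADX ZT12 replicates 5 and 8 and ZT0 replicate 3, RE-RE sham ZT12 replicates 5 and 8 and ZT0 replicates 1 and 3).

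The difference between the 2 effects was tested as well, a comparison added after the data had been seen. It passed in 7 of 29 genes, 6 with the RE-RE effect above the WT effect and 1 below, where 13.9% of all tested genes were above and 11.0% below. Rreb1 differed most clearly. Its effect was 0.10 ± 0.04 (SE, adjusted p = 0.116) in RE-RE and -0.28 in WT, a difference of 0.37 ± 0.06 (SE, adjusted p = 3.82e-05). Lpgat1 and Zdhhc23 differed by 0.29 ± 0.07 (SE, adjusted p = 0.002) and 0.62 ± 0.15 (SE, adjusted p = 0.00243). 9330159F19Rik, with the opposite sign, differed by -0.40 ± 0.11 (SE, adjusted p = 0.00556). Without the 7 libraries that stand apart 5 genes passed, and Med26 and Fam102b did not. The Med26 call was also lost without WT ADX ZT0 replicate 3. In the same test 1 of 10 endothelial markers was above and 8 below (median -0.40), 3 of 6 Schwann cell markers were above and 0 below, 3 of 7 adipocyte markers above and 1 below, 2 of 10 fibroblast markers above and 0 below, and 0 of 9 macrophage markers above and 1 below. Their part in the difference was not tested.

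Levels in the injected mice differed from those of ADX mice over most of the table. Between WT ADX+DEX and WT ADX, 16 of 29 were higher and 7 lower, where 41.0% of all tested genes were higher and 36.5% lower. Pnmt had the largest change, with 34.1 to 44.2 FPKM in WT ADX+DEX and 0 to 0.358 FPKM in WT ADX, a difference of 5.30 ± 0.08 (SE, adjusted p = 1.31e-36) on the log2(FPKM + 1) scale, whose offset of 1 sets the size for values this near 0. Fbxo32, with 68.4 to 120 FPKM under dexamethasone and 13.0 to 27.7 FPKM in WT ADX, rose by 2.14 ± 0.21 (SE, adjusted p = 1.1e-11). Txnip rose by 1.69 ± 0.25 (SE, adjusted p = 1.4e-07), with 290 to 387 FPKM in WT ADX+DEX and 39.3 to 164 FPKM in WT ADX. Gm11730, Zdhhc23 and Med26 rose by 2.00 ± 0.12 (SE, adjusted p = 1.58e-17), 1.61 ± 0.11 (SE, adjusted p = 3.15e-16) and 1.44 ± 0.10 (SE, adjusted p = 1.82e-15). Klf4 fell to 2.34 to 7.08 FPKM in WT ADX+DEX, against 6.17 to 12.0 FPKM in WT ADX, a change of -0.97 ± 0.22 (SE, adjusted p = 0.000129).

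Between WT ADX+ADR and WT ADX, 14 of 29 genes were higher and 6 lower, where 34.3% of all tested genes were higher and 32.1% lower. Fbxo32 had 59.1, 70.9, 90.2 and 65 FPKM at ZT12 and 71.2, 84.8, 66.4 and 66.6 FPKM at ZT0 and was higher by 1.80 ± 0.21 (SE, adjusted p = 2.39e-09). Rreb1 was higher by 0.45 ± 0.04 (SE, adjusted p = 5.8e-11) and Pnmt by 0.80 ± 0.08 (SE, adjusted p = 1.43e-10), while Sema7a was lower, at -0.56 ± 0.07 (SE, adjusted p = 3.01e-08). Txnip was higher by 1.30 ± 0.25 (SE, adjusted p = 2.29e-05) and Zdhhc23 by 0.76 ± 0.11 (SE, adjusted p = 1.56e-07). Fbxo32, Txnip, Zdhhc23, Rreb1 and Pnmt were among the genes called higher under either hormone, and both comparisons share the WT ADX libraries. Set against each other, WT ADX+DEX was above WT ADX+ADR in 12 of 29 genes and below in 5, where 30.3% of all tested genes were above and 28.0% below. Pnmt differed by 4.50 ± 0.08 (SE, adjusted p = 2.05e-34), Gm11730 by 1.67 ± 0.12 (SE, adjusted p = 4.64e-15), Sema7a by 1.15 ± 0.07 (SE, adjusted p = 1.41e-16) and Med26 by 0.99 ± 0.10 (SE, adjusted p = 6e-11). Klf4 was lower under dexamethasone than under adrenaline, at -1.57 ± 0.21 (SE, adjusted p = 4.19e-08), and Fbxo32 did not pass at 0.34 ± 0.20 (SE, adjusted p = 0.147).

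Markers of other cells moved with these comparisons. The 8 adipocyte markers of the table summed to 49.7 to 258 FPKM under dexamethasone, 1238 to 1791 FPKM under adrenaline and 1952 to 2677 FPKM in untreated WT ADX mice, with no marker at 0 in all libraries of a condition, and of 7 tested ones 3 were higher and 2 lower in WT ADX+DEX than in WT ADX. Endothelial markers summed to 94.9 to 115 FPKM, 154 to 257 FPKM and 222 to 280 FPKM in the same order, with 9 of 10 lower and 1 higher in WT ADX+DEX than in WT ADX. Fibroblast markers summed to 141 to 205 FPKM, 150 to 601 FPKM and 85.1 to 506 FPKM in these 3 conditions, and 2 of 10 were listed at 0 in all WT ADX+DEX libraries. The 10 neutrophil and lymphocyte markers were not in the table used here. Their part in the results was not tested.

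**Figure D5:**
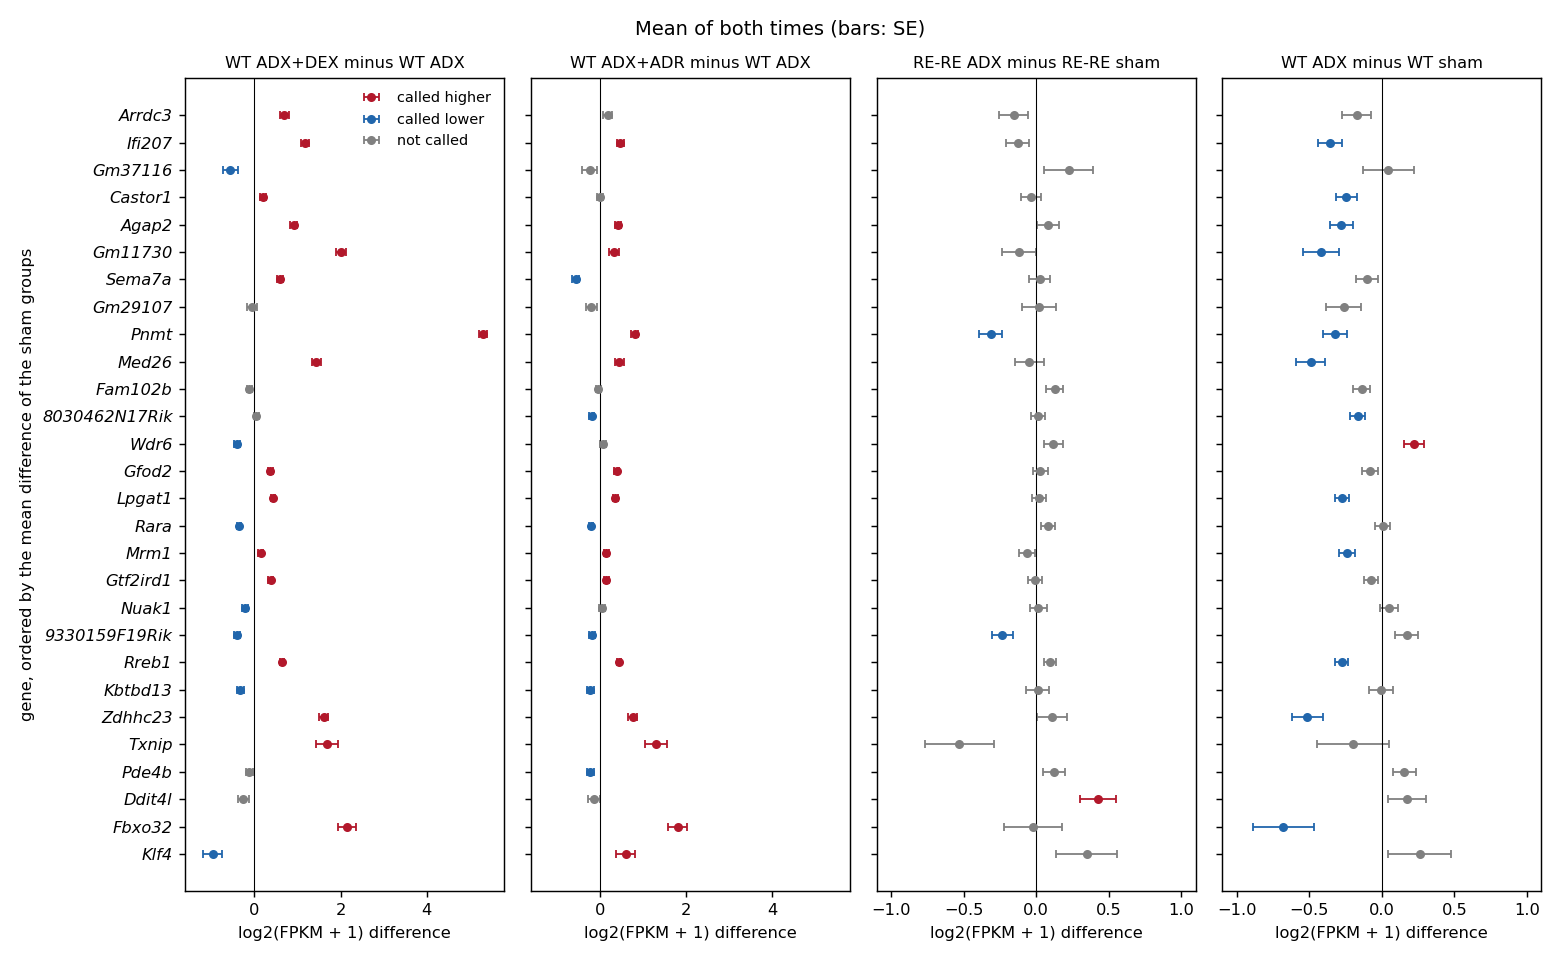
Difference in the mean over both times on the log2(FPKM + 1) scale, with SE, for 28 of the 29 tested genes in 4 comparisons (panels; the axes of the 2 hormone panels are wider than those of the 2 adrenalectomy panels). Red points were called higher and blue points lower by limma; 23 points are coloured for WT ADX+DEX, 20 for WT ADX+ADR, 3 for RE-RE ADX and 13 for WT ADX.

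Between the sham mice of the 2 genotypes, 7 of 29 genes were higher and 8 lower in RE-RE than in WT, where 18.6% of all tested genes were higher and 20.1% lower. Pnmt was higher in RE-RE sham by 0.56 ± 0.08 (SE, adjusted p = 6.73e-07), while Mrm1 was lower, at -0.31 ± 0.05 (SE, adjusted p = 2.34e-05), as were Fam102b at -0.29 ± 0.06 (SE, adjusted p = 0.000147) and Pde4b at -0.36 ± 0.08 (SE, adjusted p = 0.000348). Without the 7 libraries that stand apart, 12 of 29 genes were called. Those 4 calls were held there, while the calls of Arrdc3, Castor1, Gfod2 and 8030462N17Rik were lost. Fibroblast markers summed to 278 to 632 FPKM in RE-RE sham and 86.7 to 280 FPKM in WT sham, with 9 of 10 higher and 0 lower. Of the other lists, 6 of 9 macrophage markers were higher and 0 lower, 0 of 7 adipocyte markers higher and 4 lower, 0 of 10 endothelial markers higher and 3 lower, and 8 of 13 immediate early and handling stress genes higher and 3 lower. Their part was not tested. RE-RE mice lack Bmal1 outside brain and muscle, and a muscle sample holds other cells, so a difference in the fibres and in the other cells cannot be told apart.

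Lists of known pathways were set beside the rule, which kept 30 of all 13500 genes in the table. Of the 325 genes with the sham difference in both genotypes, 43 were under 0.2 in both ADX conditions. Of 21 core clock and clock output genes, 15 differed by 0.4 or more with the same sign in both sham conditions, and 0 of these were under 0.2 in both ADX conditions. Of 34 glucocorticoid receptor targets in the table, 17 differed in both shams, 3 of these were under 0.2 in both ADX conditions, and Fbxo32 and Pnmt were kept by the rule. Foxo1 was the third, with a d of 0.04 in RE-RE ADX and in WT ADX, and was removed by its d of -1.0 in WT ADX+DEX. The other 14 targets with a sham difference had a d of smaller size after adrenalectomy in both genotypes. They were taken for the size of their sham differences in these same data. A smaller size in other groups is thus partly fixed by that choice, and nothing is read from it. The sign of d was that of sham in 14 of 14 in RE-RE ADX, while in WT ADX it was the same in 9, opposite in 4 and at 0 in 1. Tsc22d3, or GILZ, an anti-inflammatory mediator, had a d of 0.28 in RE-RE ADX against 0.78 in RE-RE sham and of 0.34 in WT ADX against 0.80 in WT sham, and Per1 had 1.11 against 2.65 and 1.03 against 3.93 in the same order. Ddit4, a stress-induced inhibitor of mTORC1, was among those of opposite sign, with 0.68 against 2.02 in RE-RE and -1.57 against 3.15 in WT. In the mean over both times, WT ADX mice had 1 of 34 targets higher and 21 lower than WT sham mice (median -0.35, against -0.02 over all genes). Of all tested genes 19.8% were higher and 26.2% lower there. In RE-RE ADX against RE-RE sham 1 was higher and 4 lower (median -0.05, against -0.01), beside 6.78% and 11.3% of all tested genes. In WT ADX+DEX against WT ADX 31 were higher and 2 lower (median 1.90, against 0.02), beside 41.0% and 36.5%. The rise was not confined to dexamethasone. In WT ADX+ADR against WT ADX 27 were higher and 3 lower (median 1.15, against 0.01), beside 34.3% and 32.1%. WT ADX+DEX was above WT ADX+ADR in 25 targets and below in 1 (median 0.69, against 0.01), beside 30.3% and 28.0%.

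In the adrenaline-treated mice 14 of 21 clock genes were higher and 4 lower at ZT12 by limma, Arntl among the lower at -1.37 ± 0.18 (SE, adjusted p = 4.93e-07). Of 34 glucocorticoid receptor targets, 11 were higher and 2 lower. Over all tested genes 6.59% were higher and 7.0% lower. Of 20 FOXO and atrophy genes, 5 differed in both shams, 3 of these were under 0.2 in both ADX conditions and 1, Fbxo32, was kept. Of those 20, 13 were higher and 1 lower in WT ADX+DEX than in WT ADX, beside 41.0% and 36.5% of all tested genes. In WT ADX+ADR against WT ADX, 7 were higher and 5 lower, beside 34.3% and 32.1% of all tested genes. Of 22 fuel and lipid genes in the table, 6 differed in both shams and Txnip was kept. Genes of amino acid transport, growth signalling, immediate early response, heat shock and the muscle fibre gave no member. With 30 members among 13500 genes, nothing is read from that.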

How the data were processed

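Tibialis anterior RNA of 47 mice was sequenced as 60 bp single-end reads, 25 M on average per the labels. Per the submitters' processing notes reads were handled with HISAT2 2.1.0 and featureCounts 1.6.2 on GRCm38, and FastQC 0.11.8, edgeR 3.30.0 and Trim Galore 0.5.0 were also used. The deposited values are FPKM on a log2 scale, made by the authors. Their lowest value, -6.64, equals log2 of 0.01, so 0.01 was taken as the offset that the authors added and was subtracted. This offset is read from the values and is not stated. Values were then put on log2(FPKM + 1).

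The depth of the libraries was read from step sizes (tolerance 0.05) of 68 genes listed at 0 in most libraries, at least 93.8% of whose values came out whole. Of values of 1024 other genes only 8.65% to 12.8% did, where chance gives 10%, so no counts were rebuilt. Of all values, 1.59% were listed at 0.

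A model of 12 group means was fitted with limma 3.58.1 in R 4.3.3, with a trend in the prior variance and 35 residual degrees of freedom, to 12000 genes with at least 1 FPKM in at least 3 libraries. P-values were adjusted after Benjamini and Hochberg over these genes within each of 8 contrasts, of which the difference of the 2 ADX effects was added after the data were seen, and called at an adjusted p under 0.05. The procedure was tested on simulated data. Tables and plots were made in Python 3.11.15 with pandas 2.3.3 and matplotlib 3.10.9. Positions are from GENCODE M21. Nothing says whether animals of 1 group shared a litter or a day, and p-values measure the spread between these animals.

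The 30 genes and the lists were chosen with earlier results of these data known. Named genes are those in a pathway list, the 10 with the largest mean sham difference in each direction (mean of at least 1 FPKM, no predicted-gene symbol), the 6 with the smallest adjusted p under adrenaline and the 4 smallest in each other contrast, and the 3 nearest to each side of a threshold. Further genes of the lists were picked with their values in view. Alternatives were other offsets, no filter, equal library medians, a model of only the groups compared, age, the replicate block, other thresholds and leaving out libraries. The values of 1 gene are not reported here, and it counts in the totals only.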

Additional observations from a re-analysis of the deposited data

Results flagged for a closer look

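Of 318 groups of 4 libraries tested for a library far from the others, 12 held one, and chance alone gives about 1 in 20. Klf4 was at 2.76 FPKM in WT ADX+DEX ZT12 replicate 8 (the others 5.71 to 5.87), and Txnip was at 297 FPKM in the same library (the others 372 to 387). Kbtbd13 was at 5.78 FPKM in WT ADX+DEX ZT0 replicate 4 (the others 10.4 to 11.0), 8030462N17Rik at 6.71 FPKM in WT ADX+DEX ZT0 replicate 1 (the others 7.92 to 8.03), and Zdhhc23 at 1.98 FPKM in WT ADX+DEX ZT12 replicate 5 (the others 1.75 to 1.79). Zdhhc23 was also apart at 1.28 FPKM in RE-RE sham ZT0 replicate 3 (the others 0.675 to 0.697). Gm29107 was at 1.89 FPKM in RE-RE sham ZT0 replicate 4 (the others 0.775 to 0.923). Sema7a was at 5.29 FPKM in WT ADX+ADR ZT0 replicate 3 (the others 4.31 to 4.46), and Gm37116 at 3.79 FPKM in WT ADX ZT12 replicate 6 (the others 1.36 to 1.76). In WT sham, Agap2 was at 0.895 FPKM in ZT0 replicate 4 (the others 0.328 to 0.410), Med26 at 2.24 FPKM in ZT0 replicate 2 (the others 2.81 to 2.91) and Rara at 2.77 FPKM in ZT12 replicate 8 (the others 3.02 to 3.05).

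The change with adrenalectomy in the mean over both times differed between RE-RE and WT in 7 genes by limma, as RE-RE minus WT on the log2(FPKM + 1) scale. The difference was 0.36 ± 0.11 (SE, adjusted p = 0.0148) for Agap2, 0.44 ± 0.14 (SE, adjusted p = 0.0202) for Med26, 0.27 ± 0.08 (SE, adjusted p = 0.0179) for Fam102b, 0.29 ± 0.07 (SE, adjusted p = 0.002) for Lpgat1, -0.40 ± 0.11 (SE, adjusted p = 0.00556) for 9330159F19Rik, 0.37 ± 0.06 (SE, adjusted p = 3.82e-05) for Rreb1 and 0.62 ± 0.15 (SE, adjusted p = 0.00243) for Zdhhc23.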

How the results depend on the processing

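The number of genes that meet the rule, 30, depended on the sham and ADX thresholds, and the dexamethasone threshold was not varied. It was 65 on the deposited log2 scale (18 of the 30 among them), 8 with a sham difference of at least 0.5, 102 with at least 0.3, 7 with an ADX difference under 0.1, 81 with one under 0.3, 60 without the 7 libraries that stand apart (18 of the 30 among them) and 23 to 43 without each of 39 libraries in turn, lowest without RE-RE ADX ZT12 replicate 6 and highest without RE-RE ADX ZT12 replicate 5. With equal library medians it was 31 (29 of the 30 among them) and without the dexamethasone term 43.

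Of 29 tested genes, 3 were called in RE-RE ADX against RE-RE sham, but 1 with the replicate block and 1 without the 7 libraries that stand apart. Leaving out each library in turn gave 2 to 3 calls there, 9 to 11 for time under adrenaline, 13 to 15 for WT ADX against WT sham, 23 to 24 for WT ADX+DEX against WT ADX, 18 to 20 for WT ADX+ADR against WT ADX, 16 to 18 for WT ADX+DEX against WT ADX+ADR, 13 to 17 for RE-RE sham against WT sham and 6 to 9 for the difference of the ADX effects. Over all tested genes, WT ADX against WT sham gave 5512 calls and 3297 with the block, RE-RE ADX against RE-RE sham 2169 and 1165 with the block or 595 without the 7 libraries, RE-RE sham against WT sham 4639 and 3080 without them, and the difference of the effects 2991 and 1339 without them. Same-numbered libraries did not vary together (r between -0.215 and 0.27), so the numbers do not pair the animals, and the 2 times under adrenaline share no numbers. Of 109 calls of single genes, 82 held under every alternative run for them, 27 were lost at least once, and 0 changed sign. The cause of these changes was not tested. Depth limits the genes near or under 1 FPKM, and without counts no interval for counting error can be given.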
